A study of Mus musculus with 24 samples.

Results

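The 10 genes described here are pericentral, Wnt-dependent genes of the mouse liver: Glul, Oat, Axin2, Lgr5, Slc1a2, Rhbg, Tbx3, Rnf43, Znrf3 and Lect1. They were chosen by name, as every gene probe of the array that carries one of these symbols, which gave 19 of 56605 probes. All 10 genes passed the filter on dim probes and are among 21331 genes tested. Expression was measured on 1-colour Agilent arrays, 1 array per liver, in 24 male C57Bl/6J mice, 6 in each of 4 groups. The groups cross a genotype, LWT or LKO, with an oral gavage of vehicle (0.5% carboxymethyl cellulose in water) or of CL316243 at 3 mg/kg body weight, an agonist of the beta3 adrenergic receptor. Going by the title of the series, LWT mice express PPARα, a fatty acid-sensing nuclear receptor, in hepatocytes, and LKO mice do not. Gavage was at Zeitgeber time 10 h and the livers were taken at 16 h, under ad libitum feeding of a standard diet. The age of the mice and the means of deletion are not given in the sources used here.

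In the liver lobule, hepatocytes next to the central vein receive Wnt ligands and R-spondin from endothelial cells of that vein, and β-catenin then drives a gene programme that is confined to those cells or graded from them. R-spondin binds Lgr4 and Lgr5 and holds back the ubiquitin ligases Rnf43 and Znrf3, which otherwise remove Frizzled receptors from the membrane. Axin2, Lgr5, Rnf43, Znrf3 and Tbx3 are themselves targets of the pathway, while Glul, Slc1a2, Rhbg and Oat serve the uptake and disposal of ammonia, glutamate and ornithine around the central vein. Lect1 is the older symbol of Cnmd, chondromodulin, and is not Lect2. The arrays measure whole liver, so the position of a transcript within the lobule was not measured, and fewer cells of a type cannot be told apart from less RNA per cell.

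The 60-base probes below are 2 of the Glul probes, which gave different results in LKO livers, the one Lect1 probe tested, and the second Lgr5 probe; the levels and tests of Lgr5 come from its brighter probe, at base 4618. The probes are the strand of the transcript, 5′ to 3′, placed on mouse build mm9 by the array's annotation. The first base of each within the transcript the array names is used as the probe's name. Both Glul probes lie in NM_008131 at chr1:155751765-155751824 (base 408) and chr1:155755109-155755168 (base 1062), on the plus strand. The Lgr5 probe shown starts at base 4680 of ENSMUST00000105272, chr10:114899782-114899841, and the Lect1 probe at base 858 of NM_010701, chr14:80041733-80041792, both on the minus strand.

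Glul base 408: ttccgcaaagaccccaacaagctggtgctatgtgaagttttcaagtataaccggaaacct
Glul base 1062: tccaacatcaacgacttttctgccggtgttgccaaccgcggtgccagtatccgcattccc
Lgr5 base 4680: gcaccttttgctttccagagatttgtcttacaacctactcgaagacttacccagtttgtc
Lect1 base 858: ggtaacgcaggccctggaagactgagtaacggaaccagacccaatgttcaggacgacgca

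Promoters were found in RefSeq (GRCm38.p6) for 6 of the 10 genes, with 7 start sites, as the 250 bases before each start. Lgr5, Rhbg, Tbx3 and Znrf3 had no match. The letters CTTTGAT, which TCF/LEF factors are known to bind, were searched on both strands and stood in 3.21% of 32851 promoters of that length. The variant CTTTGAA was searched in the same way and stood in 4.46% of them. They differ in the last base alone, so no stretch counts for both on 1 strand, and 7.48% of the promoters held either. Among the 7 windows, 1 match was found, in Slc1a2, starting 207 bases before the start site; it is CTTTGAT on the other strand and stands in capitals as its reverse complement. Its promoter lies at chr2:102706188-102706437 on the plus strand. The windows of Rnf43, at chr11:87662837-87663086 and chr11:87699647-87699896 on the plus strand, and of Lect1, at chr14:79662184-79662433 on the minus strand, are shown because both genes fell with the agonist; they held none of these letters. The windows of Glul, Oat and Axin2 held none either. A match is a description of the letters and not a binding site.

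Slc1a2: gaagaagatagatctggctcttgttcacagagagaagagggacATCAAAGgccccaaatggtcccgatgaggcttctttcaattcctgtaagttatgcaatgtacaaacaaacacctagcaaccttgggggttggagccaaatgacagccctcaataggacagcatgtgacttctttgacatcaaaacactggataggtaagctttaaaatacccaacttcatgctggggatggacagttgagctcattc
Rnf43, first start site: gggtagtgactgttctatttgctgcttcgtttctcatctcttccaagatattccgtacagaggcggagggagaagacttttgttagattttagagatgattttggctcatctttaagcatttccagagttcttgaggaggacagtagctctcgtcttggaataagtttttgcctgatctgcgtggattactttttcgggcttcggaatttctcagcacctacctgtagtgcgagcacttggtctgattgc
Rnf43, the other start site: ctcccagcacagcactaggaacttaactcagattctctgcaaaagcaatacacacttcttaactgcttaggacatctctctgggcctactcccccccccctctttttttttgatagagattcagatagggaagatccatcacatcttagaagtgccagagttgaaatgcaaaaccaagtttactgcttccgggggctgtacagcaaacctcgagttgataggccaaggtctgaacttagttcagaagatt
Lect1: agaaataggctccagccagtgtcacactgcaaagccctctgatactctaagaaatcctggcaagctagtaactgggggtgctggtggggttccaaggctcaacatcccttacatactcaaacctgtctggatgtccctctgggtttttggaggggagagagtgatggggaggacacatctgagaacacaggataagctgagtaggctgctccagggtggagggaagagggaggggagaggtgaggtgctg

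Levels are log2 of the background-subtracted signal of the gene's brightest probe minus the array's 75th percentile, so 0 stands for that percentile and 1 unit for a doubling. Differences, their standard errors, 95% intervals and adjusted p-values come from limma, with Benjamini-Hochberg adjustment over all genes tested. Array 75th percentiles ran from 271.4 to 390.1 intensity units and 26985 to 34202 probes per array were well above background. Correlations between arrays ran from 0.942 to 0.994. Ppara itself had a mean level of 6.24 ± 0.16 (SD, n = 6 in each group) in LWT vehicle and 6.79 ± 0.28 in LWT CL316243 livers. In LKO livers it had 5.57 ± 0.15 under vehicle and 4.88 ± 0.65 under CL316243. The LKO minus LWT difference was -0.67 under vehicle (adjusted p = 0.161, no overlap of the groups) and -1.91 under CL316243 (adjusted p = 3.43e-07). Which exons the deletion removes is not given in the sources used here, so its probe may lie outside them. Of the liver markers, all 6 hepatocyte genes were well above background on every array.

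With CL316243, Lgr5, Rnf43 and Lect1 fell in LWT livers and in LKO livers, and Glul rose in LWT livers. In the LWT comparison 4 of the 10 genes passed an adjusted p under 0.05 (1 higher, 3 lower), against 38.2% of all genes tested (19.1% higher and 19.1% lower). Their median difference was 0.0012, and that of all genes 0.012. In the LKO comparison 3 of the 10 passed, all lower, against 40.2% of all genes (20.7% higher, 19.4% lower), with a median of -0.21 beside 0.025 for all genes. The shares called among the 10 are near those of the whole array, so the counts are no result about the group. The sizes of the falls and which members moved are described below. Axin2, Tbx3, Slc1a2, Rhbg, Oat and Znrf3 did not pass in either comparison. These 2 comparisons share no mice.

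**Figure D1:**
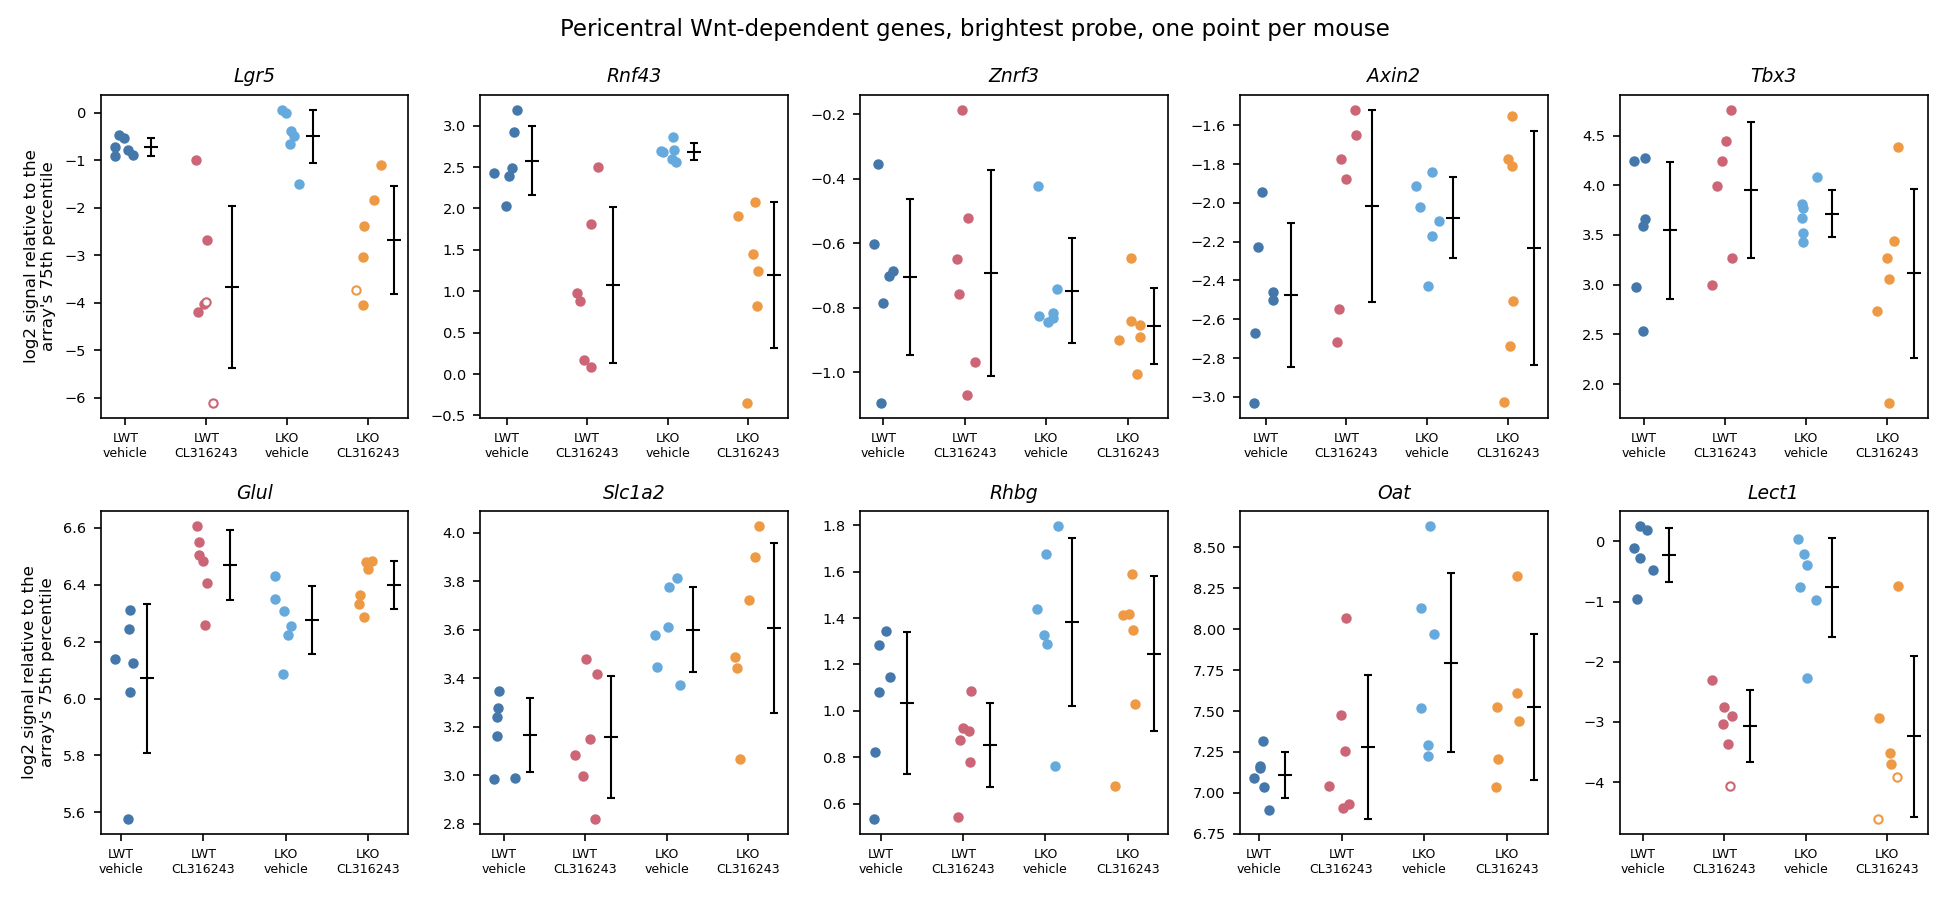
Level of each of the 10 genes by its brightest probe in every mouse (log2, with the array's 75th percentile at 0, each panel on its own scale), in 4 groups of 6. Open circles are arrays on which the probe was not well above background, and the black bar is the mean ± SD. All CL316243 points of Lgr5 in LWT livers, -6.11 to -0.99, lie below the vehicle points, -0.92 to -0.47, whereas the groups of Znrf3 and Rhbg overlap.

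Lgr5 encodes a receptor for R-spondin. In LWT vehicle livers its level ran from -0.92 to -0.47 (median -0.75), and in LWT CL316243 livers from -6.11 to -0.99 (median -4.01). In LKO livers it ran from -1.50 to 0.04 (median -0.43) under vehicle and from -4.06 to -1.10 (median -2.71) under CL316243. The LWT groups did not overlap, whereas in LKO livers the highest treated mouse lay above the lowest vehicle mouse, and 6 of 6 treated mice of each genotype lay below the vehicle mean. All vehicle arrays were well above background, against 4 of 6 treated LWT and 5 of 6 treated LKO arrays. The fitted fall was 2.95 ± 0.59 (SE) on the log2 scale in LWT livers, 7.72-fold lower (95% interval of the log2 difference -4.16 to -1.73, adjusted p = 0.000381). In LKO livers Lgr5 fell by 2.19 ± 0.59, 4.57-fold lower (95% interval -3.41 to -0.98, adjusted p = 0.00481). The effects did not differ detectably between genotypes, with a difference of 0.76 and a 95% interval of -0.96 to 2.48 (adjusted p = 0.705).

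The size of the Lgr5 fall depends on how the dim arrays are treated, while its direction and call do not. With normexp background correction it was -1.32 in LWT and -1.25 in LKO livers, and in the authors' series table -1.77 and -1.53. Within the 3 slides, each with 2 mice per group, the LWT differences were -1.13, -4.56 and -3.16, and the LKO differences -2.95, -1.77 and -1.85. With each dim treated array raised, where it lay lower, to the lowest signal well above background on it, the mean of Lgr5 was 5.59-fold lower in LWT livers. In LKO livers it was 4.39-fold lower. These folds are not lower bounds, since the falls with normexp and in the series table were smaller. The second Lgr5 probe, at base 4680, was well above background on all vehicle arrays and on 1 of 6 treated arrays of each genotype. With its dim treated arrays raised in the same way, its mean was 1.75-fold lower in LWT and 1.92-fold lower in LKO livers, with the same limits.

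Rnf43 encodes the membrane ubiquitin ligase that the R-spondin receptors hold back. Its level ran from 2.03 to 3.19 (median 2.46) in LWT vehicle livers and from 0.09 to 2.50 (median 0.93) after CL316243. LKO vehicle livers had a narrow range of 2.57 to 2.86 (median 2.69), and treated LKO livers a wide range of -0.35 to 2.08 (median 1.34). The probe was well above background on all 24 arrays. In LWT livers 1 treated mouse, replicate 4 at 2.50, lay within the vehicle range, while the LKO groups did not overlap. Rnf43 fell by 1.50 ± 0.37 (SE) in LWT livers, 2.84-fold lower (95% interval -2.28 to -0.73, adjusted p = 0.00281). The fall in LKO livers was 1.49 ± 0.37, 2.82-fold lower (95% interval -2.27 to -0.72, adjusted p = 0.0029). The 2 effects differed by 0.01, with a 95% interval of -1.08 to 1.11 (adjusted p = 0.995), which still allows a 2-fold difference either way.

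Within slides the LWT difference of Rnf43 was -0.10, -2.26 and -2.15, and the LKO difference -2.49, -1.02 and -0.97. The slide with the difference near 0 in LWT holds LWT CL316243 replicates 4 and 6, which also had the highest Lgr5 of their group (-0.99 and -2.68). The second probe of Rnf43, at base 634, was dim: it was well above background on 4 of 6 LWT vehicle arrays and 1 of 6 treated ones, and on 3 of 6 LKO vehicle arrays and 0 treated ones. It gives no fold for either genotype.

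Znrf3 encodes the other membrane ubiquitin ligase of this pair. Its levels overlapped in all groups, with medians of -0.69 and -0.70 in LWT vehicle and CL316243 livers and -0.82 and -0.87 in LKO livers. The CL316243 difference was 0.01 in LWT livers (95% interval -0.25 to 0.28, adjusted p = 0.955) and -0.11 in LKO livers (95% interval -0.37 to 0.16, adjusted p = 0.522). These intervals exclude a fall of the size measured for Rnf43. The other kept probes, at bases 2720 and 6724, gave 0.17 and -0.0018 in LWT livers, and -0.07 and -0.36 (adjusted p = 0.827 and 0.0554) in LKO livers. The array's annotation places only 6 bases of the brightest Znrf3 probe on the genome, at chr11:5176332-5176337.

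Axin2 encodes a scaffold of the β-catenin destruction complex and is widely used as a readout of Wnt signalling. It was dim on this array: levels ran from -3.03 to -1.95 (median -2.48) in LWT vehicle and from -2.71 to -1.52 (median -1.83) in LWT CL316243 livers. LKO livers had -2.43 to -1.84 (median -2.06) under vehicle and -3.03 to -1.55 (median -2.16) under CL316243. All 4 groups overlapped. The CL316243 difference was 0.46 in LWT livers, with a 95% interval of -0.05 to 0.97 (adjusted p = 0.151), and -0.16 in LKO livers, with an interval of -0.67 to 0.35 (adjusted p = 0.642). A second Axin2 probe, at base 1971, was well above background on 1 of the 24 arrays and was not tested.

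Tbx3 encodes a T-box transcriptional repressor. Its level ran from 2.53 to 4.27 (median 3.63) in LWT vehicle and from 3.00 to 4.76 (median 4.12) in LWT CL316243 livers. LKO livers had 3.42 to 4.09 (median 3.72) under vehicle and 1.81 to 4.39 (median 3.16) under CL316243, and the groups of each genotype overlapped. The differences with CL316243 had opposite signs, 0.41 in LWT (95% interval -0.34 to 1.15, adjusted p = 0.408) and -0.60 in LKO livers (95% interval -1.35 to 0.15, adjusted p = 0.194). The test of the difference between them gave -1.01 (95% interval -2.07 to 0.05, adjusted p = 0.308). The signs were not the same on every slide: within slides the LWT difference was 1.51, -0.0028 and -0.29, the LKO difference -1.68, -0.30 and 0.17, and the difference between them -3.18, -0.30 and 0.46. The second Tbx3 probe gave 0.69 and -0.41, neither of which passed. Without LKO CL316243 replicate 4, which had the highest Tbx3 of its group, the LKO difference was -0.86 and passed (adjusted p = 0.0492).

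**Figure D2:**
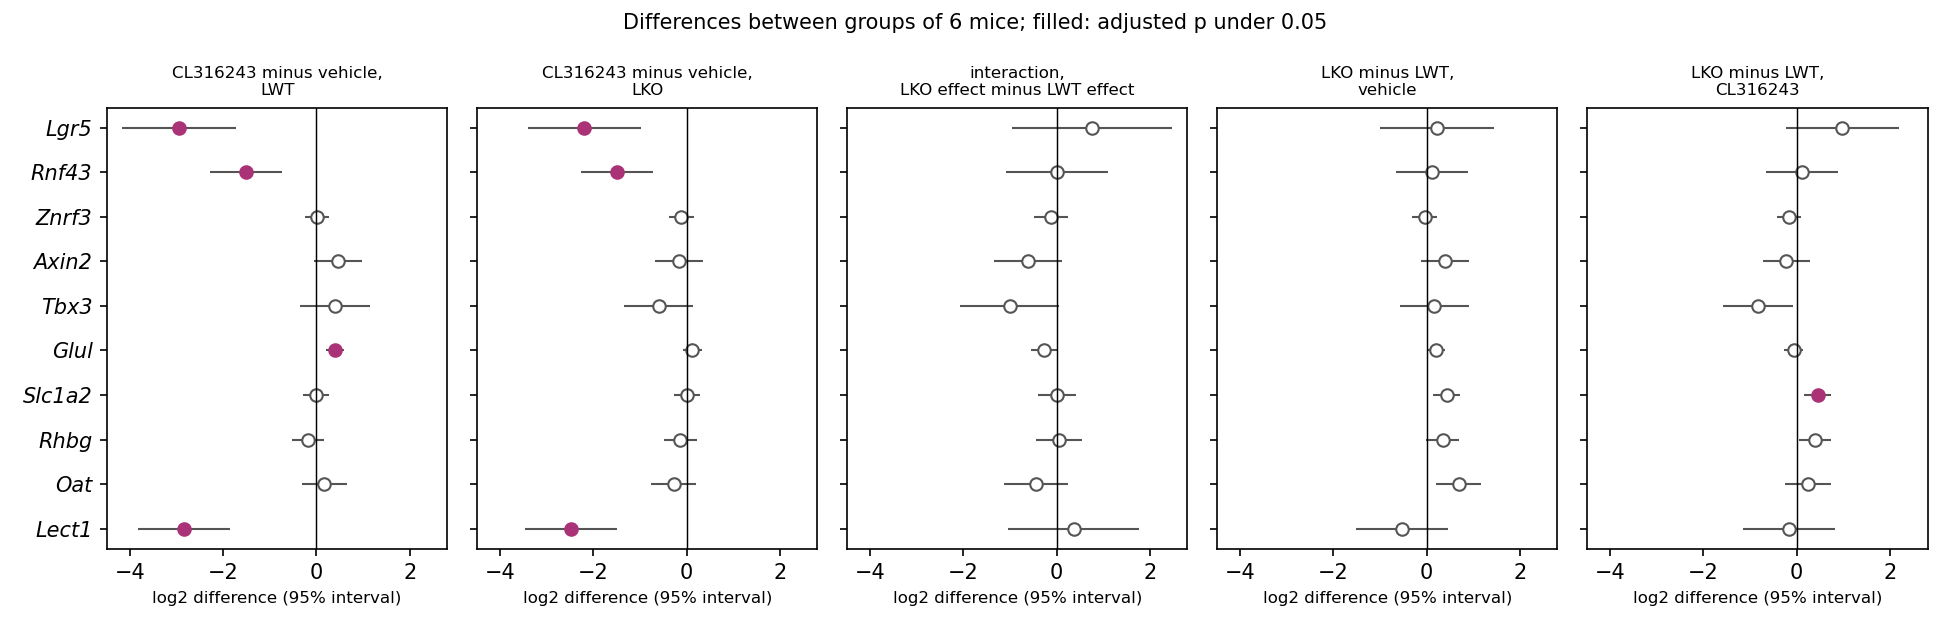
Fitted log2 differences with 95% intervals for the 10 genes by their brightest probes in 5 comparisons (n = 6 mice per group). Filled points passed an adjusted p under 0.05. Lgr5, Rnf43 and Lect1 are filled in both CL316243 comparisons, Glul in the LWT one alone, no gene in the interaction or under vehicle, and Slc1a2 in LKO against LWT under CL316243.

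Glul encodes glutamine synthetase, which joins ammonia to glutamate and is confined to the hepatocytes next to the central vein. By its brightest probe, at base 2718, levels were 5.58 to 6.31 (median 6.13) in LWT vehicle and 6.26 to 6.61 (median 6.49) in LWT CL316243 livers. LKO livers had 6.09 to 6.43 (median 6.28) under vehicle and 6.29 to 6.48 (median 6.41) under CL316243. In LWT mice 1 vehicle liver, at 5.58, lay well below the rest, and the ranges overlapped by a narrow margin. Glul rose by 0.40 ± 0.10 (SE) in LWT livers, 1.32-fold (95% interval 0.20 to 0.59, adjusted p = 0.00211, 6 of 6 treated mice above the vehicle mean). In LKO livers the difference was 0.12 (95% interval -0.07 to 0.32, adjusted p = 0.314). The difference between the effects was -0.27 (95% interval -0.55 to 0.01, adjusted p = 0.292). Within slides the LWT difference was 0.47, 0.50 and 0.21.

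The other Glul probes did not give the same picture of the LKO livers. At base 1062 the level was 4.12 to 4.61 (median 4.43) in LWT vehicle and 4.78 to 5.34 (median 4.96) in LWT CL316243 livers, without overlap, and 4.53 to 4.84 (median 4.76) and 4.59 to 4.97 (median 4.84) in LKO livers. That probe rose by 0.60 ± 0.10 in LWT livers, 1.52-fold (limma adjusted p = 4.88e-05, adjusted here over 32037 probes), and differed by 0.09 in LKO livers (adjusted p = 0.499). Its interaction of -0.51 passed (adjusted p = 0.0278), but not without LKO vehicle replicate 4 or without LWT CL316243 replicate 2 (adjusted p up to 0.0517).

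At base 408 the high group was LKO vehicle, at 1.87 to 2.58 (median 2.48). LWT vehicle livers had 1.66 to 1.95 (median 1.70), LWT CL316243 livers 1.77 to 2.67 (median 2.01) and LKO CL316243 livers 1.57 to 1.86 (median 1.73). The LKO groups did not overlap: this probe fell by 0.62 ± 0.13 with CL316243 in LKO livers, 1.54-fold lower (adjusted p = 0.00056). It differed by 0.31 in LWT livers (adjusted p = 0.058). Its interaction was -0.94 ± 0.18 (adjusted p = 0.00237) and passed in all 24 fits that left out 1 mouse, with values of -0.88, -1.15 and -0.78 within slides. Under vehicle the LKO livers were higher by 0.60 at this probe (adjusted p = 0.0177); that call was lost without LKO vehicle replicate 2, 3 or 5 (adjusted p up to 0.0545). The 3 probes list NM_008131 in common, and the probe at base 408 lists further Ensembl transcripts that the others do not. Whether the probes read different transcripts was not tested.

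**Figure D3:**
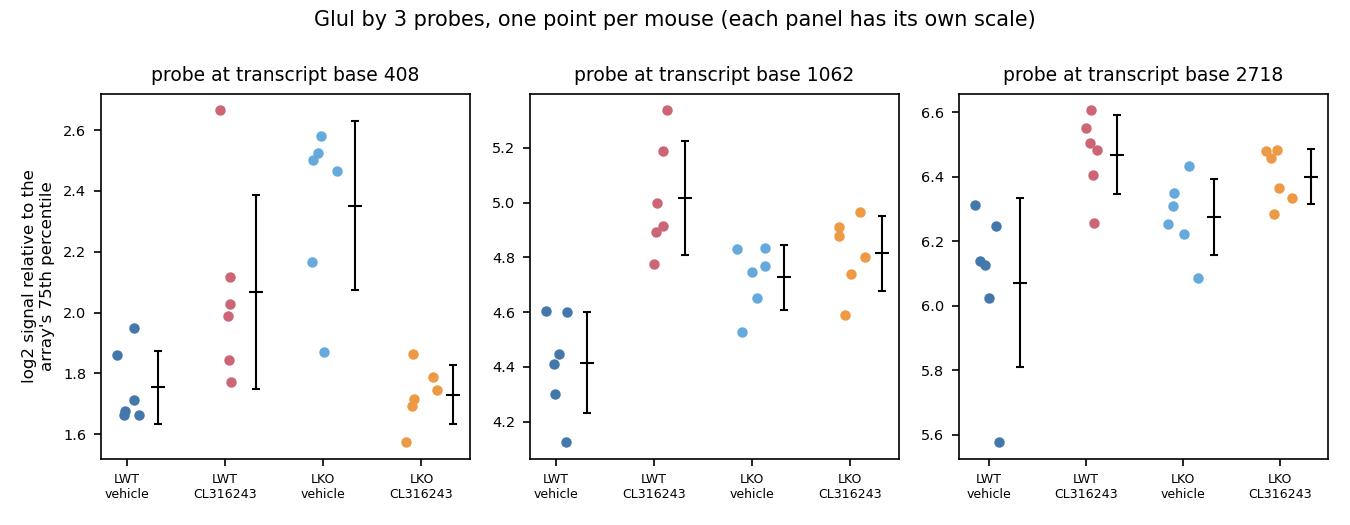
Glul level in every mouse by each of its 3 probes (log2, with the array's 75th percentile at 0, each panel on its own scale; black bars, mean ± SD, n = 6). At base 1062 all LWT CL316243 livers (4.78 to 5.34) lie above the LWT vehicle livers (4.12 to 4.61), while at base 408 the LKO vehicle livers (1.87 to 2.58) lie above the LKO CL316243 livers (1.57 to 1.86).

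Slc1a2 encodes a glutamate transporter of the plasma membrane. Between treatments its levels differed by little: the CL316243 difference was -0.0093 in LWT (95% interval -0.30 to 0.28, adjusted p = 0.967) and 0.0078 in LKO livers (95% interval -0.28 to 0.29, adjusted p = 0.972). Larger differences lay between the genotypes. LWT livers had 2.98 to 3.34 (median 3.20) under vehicle and 2.82 to 3.48 (median 3.11) under CL316243, and LKO livers had 3.37 to 3.81 (median 3.59) and 3.07 to 4.03 (median 3.60). The vehicle groups did not overlap, and under CL316243 5 of 6 LKO mice lay above the LWT mean.

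Under CL316243 Slc1a2 was higher in LKO livers by 0.45 ± 0.14 (SE), 1.37-fold (95% interval 0.16 to 0.74, adjusted p = 0.0283). It was the 1 gene of the 10 called in that comparison, in which 15.9% of all genes were called (7.56% higher, 8.3% lower). Under vehicle the difference was 0.43 ± 0.14 (95% interval 0.15 to 0.72), of like size, but the adjusted p was 0.202; in that comparison 1.18% of all genes were called (0.403% higher, 0.778% lower). The call under CL316243 was lost without LWT replicate 4 or 6 or LKO replicate 2, 3 or 4, with adjusted p between 0.0545 and 0.0776, and within slides the differences were 1.06, 0.0040 and 0.29. A fit of only the 2 groups compared reversed which call passed, with an adjusted p of 0.119 under CL316243 and 0.0467 under vehicle. The second Slc1a2 probe, at base 29 of ENSMUST00000128622, was not well above background on any array.

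Rhbg encodes an ammonium transporter of the Rh family. Its levels were 0.53 to 1.35 (median 1.11) and 0.54 to 1.08 (median 0.90) in LWT vehicle and CL316243 livers, and 0.76 to 1.80 (median 1.38) and 0.68 to 1.59 (median 1.38) in LKO livers. Neither treatment difference passed: -0.18 in LWT (95% interval -0.53 to 0.17, adjusted p = 0.435) and -0.13 in LKO livers (95% interval -0.49 to 0.22, adjusted p = 0.556). The LKO minus LWT difference was 0.35 under vehicle (adjusted p = 0.633) and 0.39 under CL316243 (adjusted p = 0.129). Without LKO CL316243 replicate 1 the latter was 0.51 and passed (adjusted p = 0.0397).

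Oat encodes ornithine aminotransferase, a mitochondrial enzyme that turns ornithine towards glutamate. LWT livers had 6.90 to 7.32 (median 7.12) under vehicle and 6.91 to 8.07 (median 7.15) under CL316243, and LKO livers had 7.23 to 8.63 (median 7.75) and 7.04 to 8.33 (median 7.48). The treatment differences were 0.17 in LWT (95% interval -0.31 to 0.66, adjusted p = 0.608) and -0.27 in LKO livers (95% interval -0.76 to 0.21, adjusted p = 0.376). Under vehicle the LKO livers stood 0.69 above the LWT livers (95% interval 0.20 to 1.17), with 6 of 6 LKO mice above the LWT mean, which did not pass over all genes (adjusted p = 0.264).

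Lect1, chondromodulin, is a glycoprotein best known from cartilage, where it acts against vessel growth. Its level ran from -0.95 to 0.26 (median -0.20) in LWT vehicle and from -4.07 to -2.30 (median -2.97) in LWT CL316243 livers, without overlap. LKO vehicle livers had -2.28 to 0.04 (median -0.58). Among treated LKO livers 5 of 6 lay between -4.62 and -2.94, and the other, replicate 3, was at -0.74 and within the vehicle range. Treated arrays were well above background on 5 of 6 arrays in LWT and 4 of 6 in LKO livers. Lect1 fell by 2.84 ± 0.48 (SE) in LWT livers, 7.16-fold lower (95% interval -3.83 to -1.85, adjusted p = 7.19e-05). In LKO livers Lect1 fell by 2.47 ± 0.48, 5.56-fold lower (95% interval -3.47 to -1.48, adjusted p = 0.000303). The interaction was 0.37, with a 95% interval of -1.04 to 1.77 (adjusted p = 0.842). With normexp background correction the fall was smaller, -1.66 in LWT and -1.25 in LKO livers. Within slides it was -2.13, -3.34 and -3.05 in LWT and -0.61, -3.01 and -3.80 in LKO livers; the slide with the smallest LKO difference holds LKO CL316243 replicate 3 and also LKO vehicle replicate 6, the lowest vehicle mouse at -2.28. With dim treated arrays raised as for Lgr5, the mean of Lect1 was 7.08-fold lower in LWT and 5.42-fold lower in LKO livers, with the same limits.

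No interaction of genotype and treatment passed for any of the 10 genes by their brightest probes (limma; 0 of 10 also at an unadjusted p under 0.05), where 5.4% of all genes passed (2.06% higher, 3.34% lower). Under vehicle 0 of the 10 passed between genotypes, and 3, Glul, Oat and Slc1a2, had an unadjusted p under 0.05; 8 of the 10 differences were positive, with a median of 0.21 beside -0.014 for all genes. Under CL316243 the median was 0.026 beside 0.011 for all genes, and besides Slc1a2 the largest differences that did not pass were Lgr5 at 0.98 (adjusted p = 0.298) and Tbx3 at -0.84 (adjusted p = 0.128). Without LWT CL316243 replicate 4 the Lgr5 difference was 1.51 and passed (adjusted p = 0.0427), and without LKO CL316243 replicate 4 the Tbx3 difference was -1.09 and passed (adjusted p = 0.0333).

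Lgr5 spread more among treated than among vehicle mice, with an SD of 1.71 against 0.18 in LWT and 1.14 against 0.56 in LKO livers, and Rnf43 had 0.94 against 0.41 and 0.88 against 0.10. The difference in spread was not tested, and the Lgr5 SD of treated mice includes arrays on which it was not well above background. Across 45 pairs of genes in 4 groups, 180 relations within groups in all, none passed Benjamini-Hochberg adjustment (20 had an unadjusted p under 0.05), and the lowest adjusted p was 0.125, so the values that follow are descriptions. In LWT CL316243 livers the mouse with the highest Lgr5 (-0.99) had the highest Rnf43 (2.50) and the lowest Glul (6.26). The mouse with the lowest Lgr5 (-6.11), on an array where Lgr5 was not well above background, had the lowest Rnf43 (0.09) and the highest Glul (6.61). Over the 6 mice of that group Lgr5 and Glul had r = -0.974 (exact permutation p = 0.00139, the smallest that 6 mice allow). Without the 2 mice farthest from the Glul median r was -0.935, which still includes replicate 1 (Lgr5 -3.99), not well above background. In the other groups r was positive, 0.108 in LWT vehicle, 0.475 in LKO vehicle and 0.246 in LKO CL316243 livers (exact permutation p = 0.878, 0.346 and 0.632). Of the Lgr5 values, 2 of 6 in LWT CL316243 and 1 of 6 in LKO CL316243 livers were not well above background and have no order. No rank correlation is therefore given for Lgr5. Each r and p of Lgr5 in these groups takes the dim values as if measured, so they carry little weight.

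Rnf43 and Tbx3, both well above background on all 24 arrays, had r = 0.949 in LKO CL316243 livers (exact permutation p = 0.00139, adjusted p = 0.125). Their rho there was 1.0 (exact permutation p = 0.00278, adjusted p = 0.167), and r was 0.98 without the 2 mice farthest from the Rnf43 median. In LWT vehicle livers their r was 0.928 (exact permutation p = 0.0125, adjusted p = 0.281) and in LWT CL316243 livers 0.875 (exact permutation p = 0.0292, adjusted p = 0.397). In LKO vehicle livers, where Rnf43 spread over 0.10 (SD), r was 0.498 (exact permutation p = 0.301, adjusted p = 0.717). Lgr5 and Rnf43 had r = 0.916 in LWT CL316243 (exact permutation p = 0.0111, adjusted p = 0.281) and 0.705 in LKO CL316243 livers (exact permutation p = 0.104, adjusted p = 0.47). Under vehicle their r was 0.098 in LWT (exact permutation p = 0.847) and -0.319 in LKO livers (exact permutation p = 0.508).

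**Figure D4:**
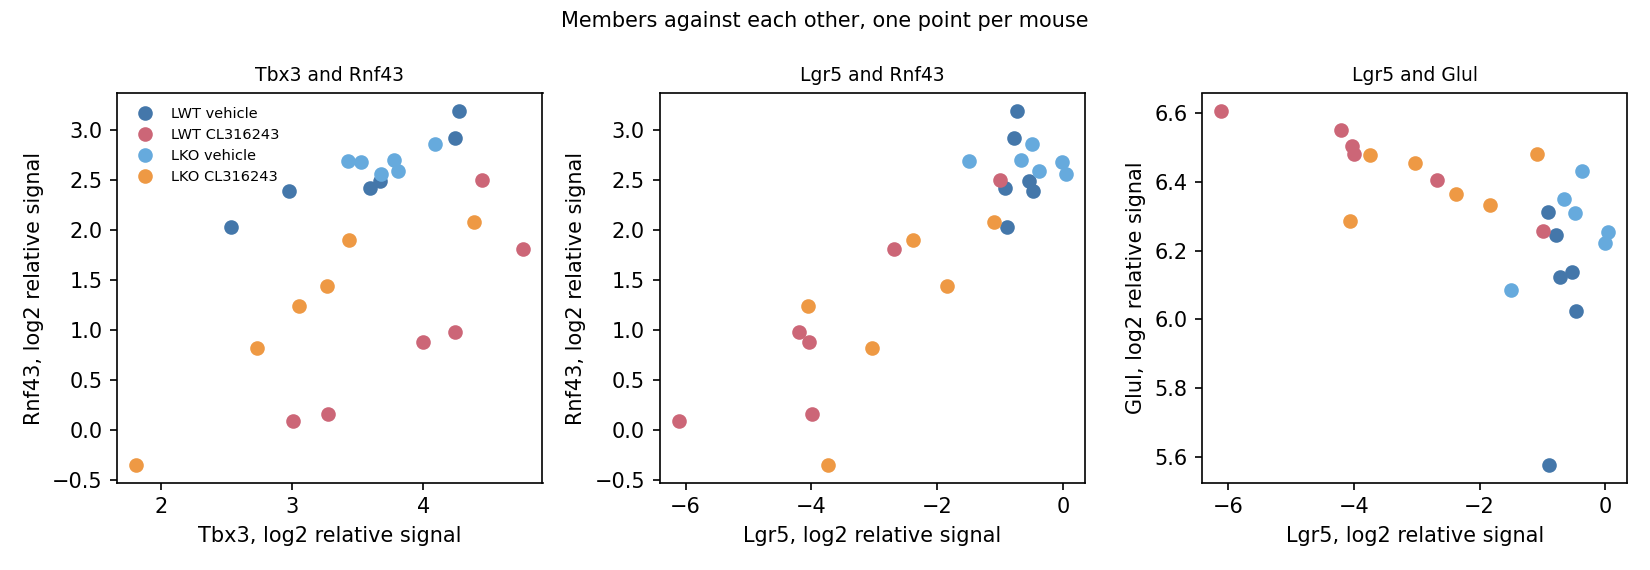
Levels of Tbx3 and Rnf43, Lgr5 and Rnf43, and Lgr5 and Glul against each other (log2, with the array's 75th percentile at 0), 1 point per mouse, coloured by group. Within the LWT CL316243 group the points of Lgr5 and Glul run from -6.11 and 6.61 to -0.99 and 6.26; Lgr5 was not well above background on 2 of these 6 arrays.

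Across all 24 arrays the genes whose levels were most like those of Glul and Axin2 by Pearson's r were named; this r includes the group differences, and the arrays share a common scale. For Glul they were Taf9 (0.804), Rcn1 (0.8), Zcchc7 (0.794), Acot6 (0.773) and Crkl (0.77). Axin2 was most like Airn and Tbx3 (both 0.752), Shroom2 (0.722), Gata4 (0.698) and Tsc22d1 (0.692), of which Tbx3 is itself among the 10 genes. Chosen after their values were seen, the closest 3 of Rnf43 were Kdm1b (0.972), Notumos (0.968), a transcript named for its place beside Notum, and Taz (0.964), and those of Lgr5 were Oaz2 (0.963), Cfap20 (0.95) and Tbcel (0.947).

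The counts in the gene lists below stand beside the shares called over all genes, 19.1% higher and 19.1% lower in LWT and 20.7% higher and 19.4% lower in LKO livers. Of the Wnt ligands and their secretion factors 11 of 13 were tested. In LWT livers 3 rose with CL316243: Wnt9b by 0.80 (adjusted p = 0.00127) and Wnt2 by 0.61 (adjusted p = 0.00625), both ligands made by central vein endothelium, and the R-spondin Rspo3 by 0.46 (adjusted p = 0.000114). Wnt5b, at -1.07 (adjusted p = 0.00295), and Wnt4, at -0.88 (adjusted p = 0.000217), fell. In LKO livers Wnt2 (0.55, adjusted p = 0.0115) and Rspo3 (0.36, adjusted p = 0.00118) rose, Wnt5b (-2.002) and Rspo1 (-2.01, named after its value was seen) fell, and Wnt9b (0.18) did not pass. Their medians were 0.16 in LWT and -0.07 in LKO livers. None passed in the interaction or between genotypes.

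Among 11 of 12 receptors tested, 3 rose and 4 fell in LWT livers, and 2 rose and 4 fell in LKO livers, where 38.2% and 40.2% of all genes were called in either direction. Lgr4, the other R-spondin receptor of the liver, fell by 0.87 in LWT (adjusted p = 1.77e-06) and by 0.59 in LKO livers (adjusted p = 0.000155). The co-receptors Lrp6 (0.84 and 0.71) and Lrp5 (0.36 and 0.41) rose in LWT and LKO livers. A second Lrp5 probe did not pass, with 0.46 in LWT (limma adjusted p = 0.286) and 0.06 in LKO livers (limma adjusted p = 0.907). Fzd8 (-0.86) and Fzd5 (-0.62) fell in LWT livers, although the second Fzd5 probe gave 0.05 (adjusted p = 0.952). Fzd7 rose by 0.78 in LWT livers and had -0.34 in LKO livers, with an interaction of -1.11 (adjusted p = 0.012) and a level 1.03 lower on the log2 scale in LKO than in LWT mice under CL316243.

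Of the secreted and intracellular antagonists 10 of 16 were tested; 3 fell in LWT and 2 in LKO livers, near the 19.1% and 19.4% of all genes that fell, and none rose. Notum, a secreted enzyme that inactivates Wnt ligands, fell by 0.63 (adjusted p = 0.000284) and by 0.66 (adjusted p = 0.000184). Nkd1, a feedback inhibitor inside the cell, fell by 0.37 in LWT (adjusted p = 0.0112) and by 0.92 in LKO livers (adjusted p = 2.21e-06), with an interaction of -0.55 (adjusted p = 0.0463), and was 0.60 higher in LKO livers under vehicle (adjusted p = 0.00409). Dact2 fell by 1.37 in LWT livers, but its second probe gave -0.35 and did not pass. Wif1, a secreted Wnt binder, was not well above background on any LWT array and entered the test through the LKO vehicle group alone, so its values are a description. In LKO livers it was above background on 4 of 6 vehicle and 3 of 6 CL316243 arrays. With the dim LWT arrays raised as for Lgr5, its LKO mean was 2.08-fold higher under vehicle and 1.33-fold higher under CL316243.

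Inside the cell, 17 of 18 components of the pathway were tested. In LWT livers 5 rose and 4 fell (38.2% of all genes were called there), and in LKO livers 6 rose and 1 fell (40.2% of all genes). Gsk3a (0.68) and Bcl9 (0.51) rose in LWT livers, and Btrc (-1.07) and Lef1 (-0.49) fell. Ctnnb1, β-catenin itself, had 0.13 in LWT livers (adjusted p = 0.103) and rose by 0.24 in LKO livers (adjusted p = 0.00262). Tcf7l2, the main TCF factor of the liver, had 0.31 and -0.25 with the agonist, neither passing, and was 0.64 lower on the log2 scale in LKO than in LWT livers under CL316243 (adjusted p = 0.00722), as were its other 3 probes. Bcl9 (-0.87) and Bcl9l (-0.81) were also lower there and Pygo2 (0.20) higher. Bcl9 had an interaction of -0.81 (adjusted p = 0.0321). For Dvl2 (-0.67) and Gsk3b (0.42) in LWT livers other probes gave the opposite sign, 0.79 and -0.48, so no direction is given for them, nor for the Dvl2 interaction (0.94) and genotype difference under CL316243 (0.97).

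**Figure D5:**
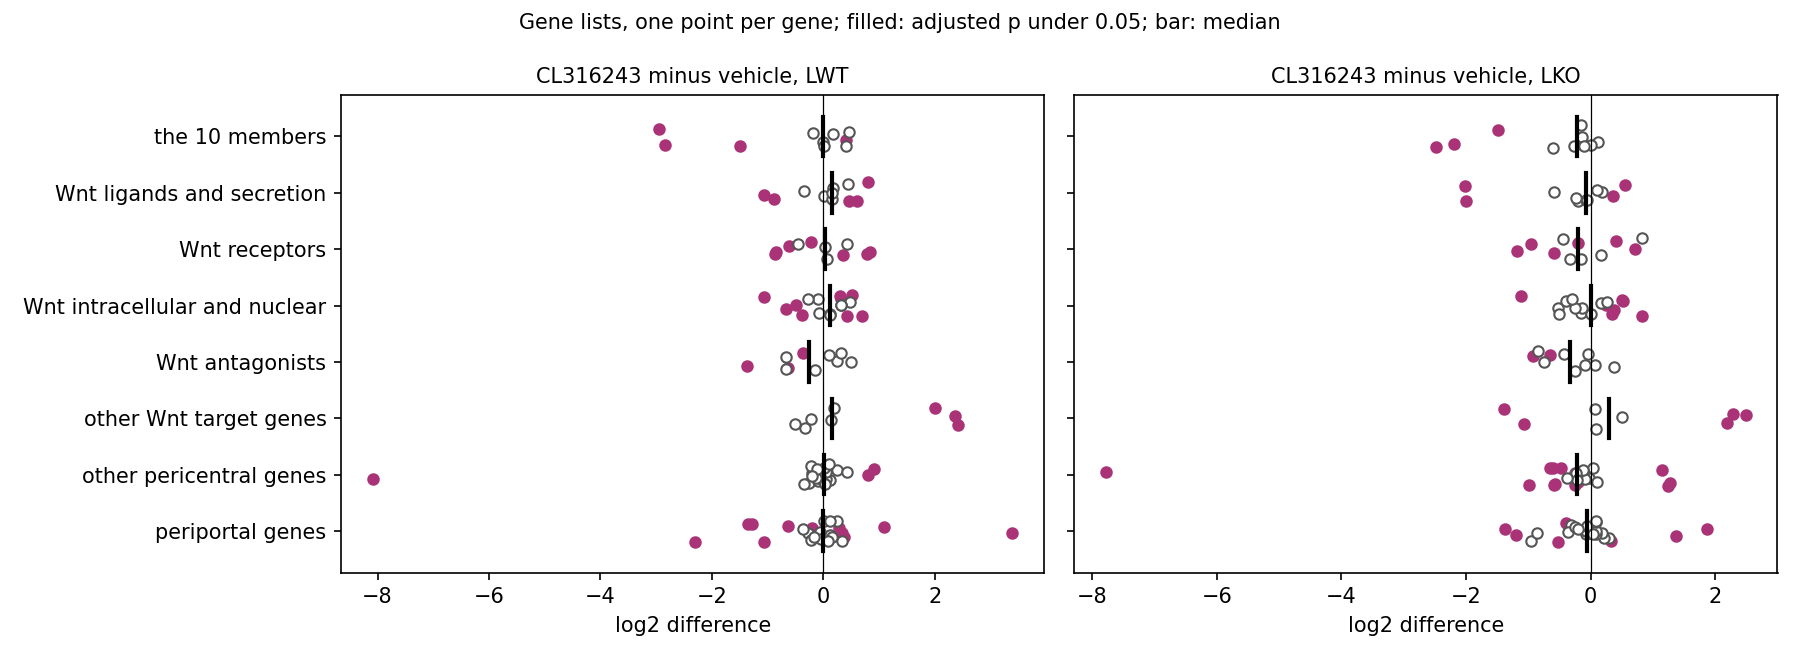
Log2 difference of CL316243 against vehicle in LWT and LKO livers for the 10 genes and 7 gene lists, 1 point per gene by its brightest probe. Filled points passed an adjusted p under 0.05, and the bar is the list's median. Medians run from -0.26 to 0.16 in LWT livers, and the far left point is Cyp7a1, drawn at the fitted -8.08 in LWT and -7.78 in LKO livers, with 4 of 6 treated arrays of each genotype not well above background.

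Of 8 further Wnt target genes, all tested, 3 rose and 0 fell in LWT livers, and 3 rose and 2 fell in LKO livers. Their medians were 0.16 and 0.29, where 38.2% and 40.2% of all genes were called. Those that rose in LWT livers were Jun (2.41, adjusted p = 2.04e-09), Mmp7 (2.36, above background on 2 of 6 vehicle and 5 of 6 treated arrays) and Myc (1.997). Of the 2 groups compared, Mmp7 met the filter in the treated group alone, so its value is a description. Ccnd1, cyclin D1, had 0.18 in LWT and fell by 1.39 in LKO livers, with an interaction of -1.57 (adjusted p = 0.048) and a level 1.30 lower on the log2 scale in LKO livers under CL316243. Sp5, a transcription factor gene induced by β-catenin and named here after its values were seen, had -0.33 in LWT livers (adjusted p = 0.566) and fell by 1.07 in LKO livers (adjusted p = 0.041).

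The other pericentral genes, 23 of 23 tested, had 2 higher and 1 lower in LWT livers, with a median of 0.02, where 38.2% of all genes were called. In LKO livers 3 were higher and 10 lower, with a median of -0.23, where 40.2% of all genes were called (19.4% lower). A test of the difference itself passed for 2 of them, Cyp1a2 (-0.72, adjusted p = 0.0212) and Ahr (1.41, adjusted p = 0.00546). Cyp1a2, a drug-metabolising cytochrome, was 0.77 higher in LKO livers under vehicle (adjusted p = 0.00146) and fell by 0.61 with the agonist there. Cyp2e1, a common marker of this zone, did not pass (0.07 in LWT, adjusted p = 0.499; -0.02 in LKO, adjusted p = 0.82). Cldn2 (0.80) and the transporter Slc16a10 (0.91) rose in LWT livers. Cyp7a1, the rate-limiting enzyme of bile acid synthesis, was well above background on 6 of 6 vehicle and 2 of 6 treated arrays of each genotype. With dim treated arrays raised as for Lgr5, its mean was 108-fold lower in LWT and 124-fold lower in LKO livers. Under CL316243 Ahr (1.45), Cldn2 (0.62) and Cyp2c29 (0.27) were higher in LKO livers. Lect2 had -0.25 in LWT and fell by 0.48 in LKO livers.

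Periportal genes, 24 of 24 tested, moved in both directions: 5 rose and 6 fell in LWT livers, and 3 rose and 4 fell in LKO livers, with medians of -0.01 and -0.07, where 38.2% and 40.2% of all genes were called. Apoa4 (3.39), Sdsl (1.09) and Apoc2 (0.36) rose in LWT livers, and Hal (-2.30), Cdh1 (-1.34) and Aldh1b1 (-1.29) fell. The Apoa4 interaction was -1.52 (adjusted p = 0.0171). Under CL316243 Etnppl (1.20), Hal (1.05) and Cyp2f2 (0.21) were higher in LKO than in LWT livers, and Apoa4 (-0.98), Arg1 (-0.62) and Apoc2 (-0.56) lower.

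Markers of other liver cells moved with the treatment in part. The summed linear level of 7 of 7 endothelial markers ran from 57.6 to 62.3 in LWT vehicle, 60.8 to 71.7 in LWT CL316243, 50.9 to 68.7 in LKO vehicle and 52.8 to 70.2 in LKO CL316243 livers. In the same order the 7 stellate markers gave 69.1 to 97.8, 82.8 to 109.8, 63.0 to 91.3 and 85.7 to 108.2, and the 7 Kupffer markers 60.4 to 128.4, 70.2 to 140.4, 65.9 to 112.5 and 62.8 to 121.4. The 6 cholangiocyte markers gave 5.49 to 9.67, 6.34 to 20.8, 5.24 to 9.91 and 10.5 to 20.7, and the 5 neutrophil markers 2.77 to 7.59, 2.96 to 19.8, 2.95 to 4.66 and 5.07 to 69.0.

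By gene, the lists were uneven, as shown by genes named here after their values were seen. Of the 7 endothelial markers 2 rose and 0 fell in LWT livers, and 1 rose and 2 fell in LKO livers. Over all genes 38.2% and 40.2% were called in these comparisons. Of the cholangiocyte markers Sox9 rose by 1.47 in LWT and 2.18 in LKO livers and Spp1 by 0.96 in LKO livers, and Krt19, Krt7, Epcam and Cftr did not pass. Of the neutrophil markers S100a8, S100a9 and Retnlg rose in both genotypes, while Ly6g fell by 0.38 in LWT livers. Of the stellate markers Dcn, which makes up most of that sum, rose by 0.28 and Lrat fell by 0.71 in LWT livers, the median of the 7 was -0.16, and none passed in LKO livers. Of the lymphocyte markers 4 of 6 were tested, and their sum of 2.69 to 3.99 over all groups rests mostly on Cd3e. Ms4a1 (-1.45 and -1.67) fell with the agonist in LWT and LKO livers, and in LKO livers the T cell gene Cd3g (-1.02) fell and Cd3e (0.24) rose. Cd79a was well above background on 0 arrays and Cd8a on 2. The part of these markers in the falls of Lgr5, Rnf43 and Lect1 was not tested. The adipocyte markers (3 of 4 tested, Adipoq left out) gave 0.86 to 1.87, and the muscle markers (3 of 4, Ckm left out) 0.24 to 1.46.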

How the data were processed

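Total RNA of 24 livers (200 ng each) was labelled with Cy3 and hybridised to 1 array per mouse, on 3 slides that each held 2 mice of every group. Per the file headers, Agilent Feature Extraction 10.10.1.1 gave the deposited intensities, which are linear and background-subtracted for each spot. The log2 values of the deposited series table had been quantile normalized by the authors: the scanner's median signal treated in that way differed from it by a median of 0.000254 over 31367 probes. That table served as an alternative, and 0 of its columns belonged to no sample.

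Outlier spots were removed, spots of a probe averaged, log2 taken and each array's 75th percentile subtracted. Kept were 32037 probes that passed background on 4 or more of the 6 arrays in some group and had 3 or more values in each group; the brightest stood for its gene (21331 genes). A 4-group model was fitted with limma 3.58.1 in R 4.3.3, with Benjamini-Hochberg adjustment over all genes and calls under 0.05. The code was tested on simulated data. Intervals cover the spread between mice, whose number limits the precision.

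Members and lists were chosen with earlier results of these data known. In the lists, genes named are the 3 called with the largest change each way in the LWT comparison, the interaction or the genotype comparison under CL316243, and Ctnnb1, Wnt2, Wnt9b, Rspo3, Lgr4, Tcf7l2, Lect2, Cyp2e1 and Cyp1a2; other names are marked in the text. Alternatives changed the background correction, scaling, filter, the probes entering the fit, blocks, variance model and mice. Second probes were examined without each mouse and within slides, and dim treated arrays raised to a floor, as choices made after seeing the data.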

Additional observations from a re-analysis of the deposited data

Results flagged for a closer look

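In 1 of the 40 sets of 6 mice examined (10 genes in 4 groups), a mouse stood apart from the rest. The Znrf3 level of LKO vehicle replicate 1 was -0.42, and its gap to the nearest mouse made up 0.754 of the group's range, above Dixon's 95% critical value. Chance alone flags about 1 in 20 such sets.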

How the results depend on the processing

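Under 13 alternatives the count of genes called stayed at 4 in LWT and 3 in LKO livers, and Lgr5, Rnf43, Lect1 and Glul kept their direction and call in all 13. For the genotype difference under vehicle it was 1 when only the groups of the comparison were fitted, and under CL316243 0 with that fit and 0 with no filter on dim probes. The sign turned for differences near 0 that were never called. Znrf3 in LWT livers had -0.0018 with quantile normalization and -0.0315 with the 75th percentile taken over probes well above background on all arrays. Slc1a2 in LKO livers had -0.0284 and -0.0339 in the same settings, -0.0088 with normexp and -0.0301 in the series table. Axin2 in LKO livers had 0.0173 with normexp, and Lect1 between genotypes under CL316243 had 0.0452 with normexp and 0.0065 in the series table. The causes were not tested.

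Leaving out each mouse in turn gave 3 to 4 genes called in LKO livers, 0 to 2 between genotypes under CL316243, and the main count otherwise. Differences that turned sign had these ranges. In LWT livers Slc1a2 ran from -0.0737 to 0.0583 and Znrf3 from -0.0895 to 0.0872. In LKO livers Slc1a2 ran from -0.0763 to 0.1158 and Axin2 from -0.293 to 0.0015. In the interaction Slc1a2 ran from -0.0671 to 0.1251, Rhbg from -0.0774 to 0.1601, Rnf43 from -0.1847 to 0.3199 and Lect1 from -0.1331 to 0.6414. Between genotypes under vehicle Tbx3 ran from -0.0349 to 0.3134, Rnf43 from -5e-04 to 0.2317 and Znrf3 from -0.121 to 0.0268. Under CL316243 Rnf43 ran from -0.0764 to 0.4283 and Lect1 from -0.6663 to 0.1081.

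Replicate numbers were not treated as pairs in the main fit. Deviations of same-numbered mice correlated with a median of 0.0523, and 9 of 36 pairs were over 0.1. For mice of other numbers the median was -0.0085, and 19 of 180 pairs were over 0.1. Whether the numbers pair mice was not tested. With the replicate block the counts were 4, 3, 0, 0 and 1, as without it, and with the slide as a block they were the same. The replicate block gave 8287 and 8629 genes called over all genes in LWT and LKO livers. Over all genes the LKO comparison had 13091 calls and the interaction 1892 when all 32037 kept probes entered; the interaction had 678 without a filter, and the genotype difference under CL316243 2180 with only its groups. Without a filter the median of all genes in LWT livers was 0.114. Signal over background limits Lgr5 and Lect1, whose dim treated arrays make the size of the fall depend on the correction.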
